A study of Homo sapiens with 9 samples.

Results

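The baseline transcriptome of THP-1 cells was described from the 3 control libraries of a series of 9. THP-1 is a line of monocytic type, long established from a human acute myeloid leukaemia (AML), which carries the MLL-AF9 fusion, also written KMT2A-MLLT3. The 3 libraries were chosen by their labels as those that received a non-targeting control shRNA, which the sample titles call SHX2. The other 6 libraries received either of 2 shRNAs against NFATC2 and enter here only to check the labels. In all 9, cells were spinoculated with lentivirus made in 293T cells, put under puromycin from 24 hours and harvested at 48 hours, and polyadenylated RNA was sequenced. The control cells were therefore transduced and drug-selected cells of 1 line, and no untransduced library was analysed here. Since there is a single group, values are given as a description, with their spread over the 3 libraries (mean ± SD, n = 3) and no test. The series calls its replicates biological, but the labels do not say whether they came from separate cultures, so the SD may be technical in part.

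Monocytes and granulocytes arise from a shared myeloid progenitor. The transcription factors PU.1 (SPI1), C/EBP-alpha and RUNX1 set up that programme, IRF8 and KLF4 favour the monocytic branch, and GFI1 and C/EBP-epsilon favour the granulocytic branch. Progenitors at the promyelocyte stage make the serine proteases of the azurophil granules, whereas mature monocytes carry CD14, Fc receptors and scavenger receptors. The MLL-AF9 protein joins the start of a histone methyltransferase to a subunit of the transcription elongation machinery and is known for keeping HOXA genes and MEIS1 active.

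The libraries held 41413187, 40657640 and 40047459 counts in control replicates 1, 2 and 3, and a count was seen for 19379, 20382 and 19888 genes. The levels below are FPKM, the authors' counts scaled by gene length and library size. The length is that of all annotated exons of a gene together, not of the transcript in use, so comparisons between genes are approximate. NFATC2, the target of the shRNAs, stood at 1.52, 3.26 and 3.18 FPKM in the control libraries, against 0.176 to 0.885 and 0.308 to 1.13 in the libraries of the NFATC2 shRNAs, so the control labels and the target gene pointed the same way. Spearman correlations between the control libraries ran from 0.943 to 0.982 over 8376 genes, as a description across genes, which are not independent. Counts differed between each pair far beyond counting noise (chi-square per degree of freedom from 68.6 to 191), so no library repeated another. Control replicate 1 had the lowest share of mitochondrial counts, 4.5%, and the highest share from cytosolic ribosomal protein genes, 17.2%, against 12% in control replicate 2. In bulk RNA, a low level in every cell and a high level in a few cells cannot be told apart.

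Of 58735 annotated genes, 8972 (15.3%) reached 1 FPKM in all 3 libraries and 35597 (60.6%) had a count of 0 in all 3. Among 19951 protein-coding genes these were 8376 (42.0%) and 4926 (24.7%). A count of 0 allows up to 3 counts per library, or about 0.0724 to 0.0749 CPM, and covers counting error only. Protein-coding genes spread over 469 at a mean of 100 FPKM or more, 3021 between 10 and 100, 5429 between 1 and 10, 2830 between 0.1 and 1, and 3276 below 0.1. Counts were concentrated: the 492 genes of any type at 100 FPKM or more were 0.838% of all genes and held 51.8% ± 3.52 of the counts. The 100 genes with the highest counts took 33.1% ± 2.20. Long non-coding genes passed 1 FPKM in all 3 libraries in 257 of 14994 cases and pseudogenes in 287 of 15224. The highest long non-coding RNA was SNHG5 at 199, 103 and 150 FPKM, followed by AL355922.1 at 136 ± 27.0 and LRRC75A-AS1 at 116 ± 38.0, with GAS5 at 104 ± 23.7.

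**Figure D1:**
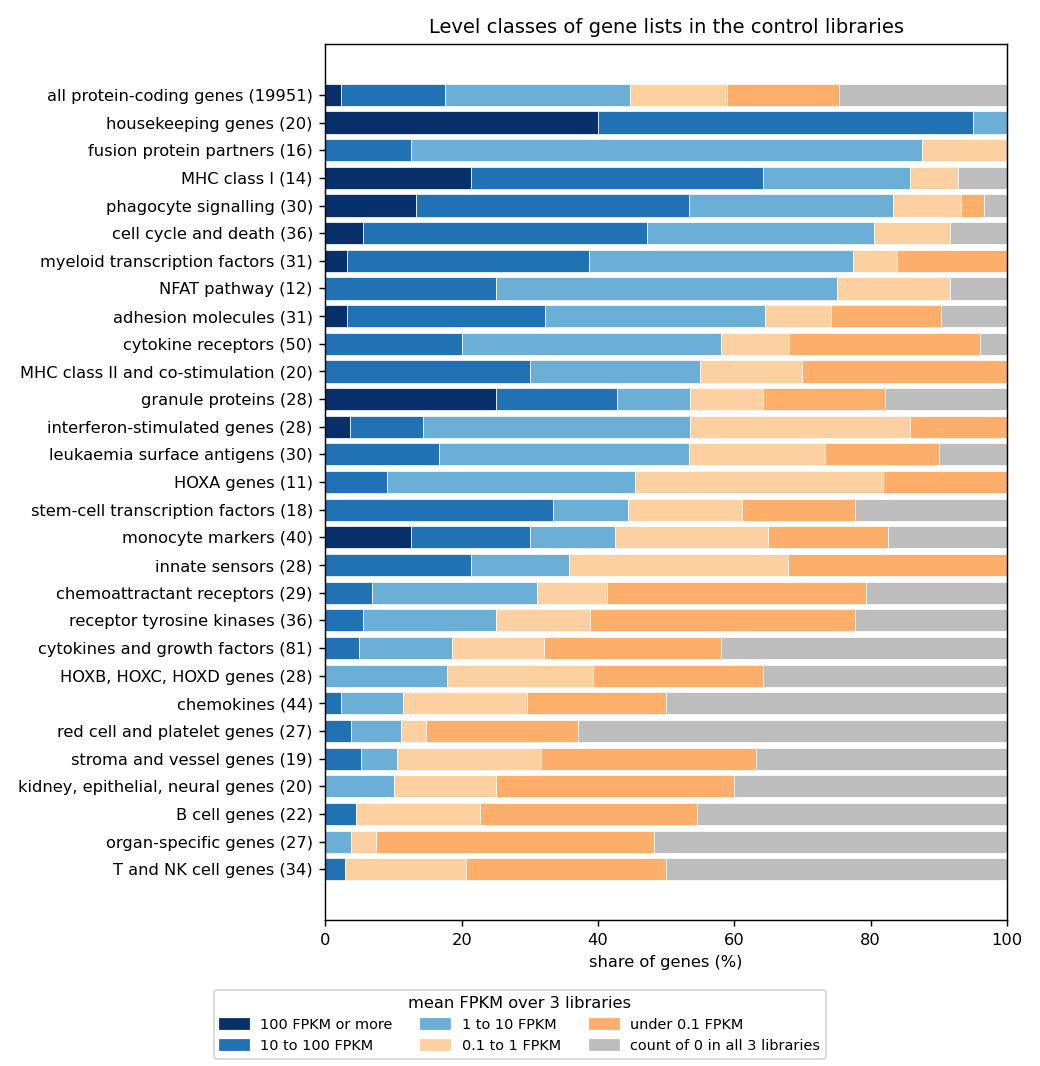
Share of the genes of each list (number of genes in brackets) in 6 classes of mean FPKM over the 3 control libraries, with all protein-coding genes at the top; darker blue is a higher level and grey is a count of 0. Housekeeping genes, partners of the fusion protein and class I antigen presentation lead the lists, and T and NK cell, organ-specific and B cell genes at the bottom.

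The most abundant nuclear-encoded messages were a mix of housekeeping and myeloid genes. Outside the mitochondrial genome, FTL, the ferritin light chain that stores iron, came first at 9729, 5864 and 8777 FPKM. SRGN, the proteoglycan that packs granule contents, followed at 9527, 7062 and 7062. PRTN3, the azurophil granule protease proteinase 3, stood at 4391, 6850 and 8246, and was lowest in control replicate 1, whereas FTL was lowest in control replicate 2. The RNA-binding protein YBX1 (4843 ± 663), S100A9, a subunit of the inflammatory protein calprotectin (4282 ± 1195), ACTB, a cytoplasmic actin (4185 ± 486), EEF1A1, which brings transfer RNA to the ribosome (4018 ± 661), and ELANE, neutrophil elastase (3564 ± 544), lay close behind, with overlapping ranges. All the mitochondrial coding genes were high, led by MT-CO3 (13826 ± 1889) and MT-CO1 (10521 ± 639), which encode subunits of cytochrome c oxidase.

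The bases in front of the start sites of a few of these genes are shown with those of genes without a count, to let their CG content be seen. Each sequence is the 100 bases before the RefSeq start (GRCh38.p14), with CG dinucleotides in capitals. FTL at chr19:48965209-48965308 (plus strand) and EEF1A1 at chr6:73521033-73521132 (minus strand) stand for housekeeping genes. PRTN3 at chr19:840899-840998 (plus strand), S100A9 at chr1:153357754-153357853 (plus strand) and CTSG at chr14:24576251-24576350 (minus strand) stand for abundant myeloid products. MTAP at chr9:21802536-21802635 (plus strand) and CD3D at chr11:118342706-118342805 (minus strand) had no count in any control library.
FTL: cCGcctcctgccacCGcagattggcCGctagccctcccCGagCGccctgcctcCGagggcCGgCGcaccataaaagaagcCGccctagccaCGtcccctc
EEF1A1: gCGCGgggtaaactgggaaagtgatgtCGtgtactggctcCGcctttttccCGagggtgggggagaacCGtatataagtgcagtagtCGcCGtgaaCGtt
PRTN3: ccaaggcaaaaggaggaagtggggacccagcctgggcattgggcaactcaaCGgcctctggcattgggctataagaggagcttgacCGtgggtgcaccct
S100A9: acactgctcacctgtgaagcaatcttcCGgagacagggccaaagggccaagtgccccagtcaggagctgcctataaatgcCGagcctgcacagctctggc
CTSG: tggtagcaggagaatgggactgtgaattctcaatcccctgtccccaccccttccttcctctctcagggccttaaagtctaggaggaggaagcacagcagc
MTAP: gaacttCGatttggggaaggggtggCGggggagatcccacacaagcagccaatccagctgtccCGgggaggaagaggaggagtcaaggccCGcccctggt
CD3D: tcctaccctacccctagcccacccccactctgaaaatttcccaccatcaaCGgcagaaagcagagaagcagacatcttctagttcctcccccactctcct

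Over the whole 300-base windows (250 before and 50 after the start), FTL held 23 CG dinucleotides and EEF1A1 24. PRTN3 held 9, S100A9 5 and CTSG 3, while MTAP and CD3D, which had no count, held 15 and 5. Of other genes without a count, CDKN2A held 28 and IL6 7, so these few genes show no common CG number. MTAP and CDKN2A lie in a block of chromosome 9 described below, where RNA counts do not show whether the DNA is present. A window was matched for 378 of 455 protein-coding genes at 100 FPKM or more (83.1%), 2550 of 3018 at 10 to 100 (84.5%) and 4454 of 5422 at 1 to 10 (82.1%), and the median CG number was 26, 27 and 27. Of the 378, 33 (8.73%) held at most 9 CG, and the 4 of these with the highest levels were PRTN3, S100A9, S100A8 and CTSG. SRGN and ELANE had no matched window, so they could not enter this ranking. For genes below 1 FPKM, and for all protein-coding genes together, fewer than 80% had a window, so a comparison with them is void and is not given. Of the lists described below, 16 of 20 housekeeping genes had a window, with a median of 30.5 CG and none at 9 or fewer. For list members with a mean of 1 FPKM or more and windows for at least 80%, the median was 33 CG for 21 of 24 myeloid transcription factors, 32 for 8 of 9 receptor tyrosine kinases, 25 for 24 of 29 cytokine receptors and 21.5 for 4 of 5 HOXA genes. It was 13 for 14 of 16 AML antigens, 11 for 12 of 15 cytokines, 4 for all 9 chemoattractant receptors and 3 for 9 of 11 class II genes.

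Of 28 genes for granule proteins, 15 were at or above 1 FPKM in all 3 libraries, against 42.0% of all protein-coding genes, and 7 had a mean of 100 FPKM or more. Below SRGN and PRTN3, ELANE stood at 3338, 3169 and 4184 FPKM, CTSG, cathepsin G, at 944, 847 and 1277, and AZU1, the antimicrobial protein azurocidin, at 281, 254 and 281. PRTN3, ELANE and AZU1 lie side by side on chromosome 19 (hg38, chr19:825097-832018 for AZU1, chr19:840960-848175 for PRTN3 and chr19:851014-856247 for ELANE), and CFD, complement factor D, next to ELANE, was at 60.1 ± 10.3. PRSS57, a further protease of that chromosome end, was at 8.13 ± 1.62. MPO, myeloperoxidase, the enzyme by which myeloid blasts are typed, was below PRTN3, ELANE and CTSG in every library at 10.8, 17.1 and 23.7. LYZ, lysozyme, reached 150 ± 60.6 and RNASE2, an eosinophil ribonuclease that monocytes also make, 232 ± 21.1. Among proteins of later granules, LTF, lactoferrin, had 1 count over the 3 libraries, LCN2 and CEACAM8 had none, and MMP9 and MMP8 had 65 and 9 counts. CAMP, the cathelicidin, was at 4.11, 1.19 and 1.76.

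Of the monocyte and macrophage markers, 16 of 40 were at or above 1 FPKM in all 3 libraries and 7 had a count of 0, near the shares of all protein-coding genes (42.0% and 24.7%). S100A9 stood at 5318, 2975 and 4553 FPKM and its partner S100A8 at 1897, 989 and 1656, both highest in control replicate 1 and lowest in control replicate 2. The adaptor proteins TYROBP (236 ± 80.3) and FCER1G (154 ± 43.7), through which many myeloid receptors signal, and AIF1, an actin-binding protein of macrophages (132 ± 43.5), were abundant. TREM2, a lipid receptor that signals through TYROBP, was at 94.7, 108 and 87.0, above its relative TREM1 (0.564 ± 0.207) in every library. The high-affinity IgG receptor FCGR1A was at 48.3 ± 7.57 and FCGR2A at 17.1 ± 3.01, whereas FCGR3A, the receptor of non-classical monocytes, had a count of 0. CD14, the co-receptor for lipopolysaccharide that marks classical monocytes, was only at 2.14, 0.815 and 1.13. The macrophage scavenger and mannose receptors CD163, MSR1 and MRC1 had no count, FCN1 had 2 counts and CLEC7A had 7. CD68 read 0.112 ± 0.0293, but 85.8% of its exon bases are shared with other annotated genes, so its value is uncertain.

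Among the transcription factors, 23 of 31 myeloid factors reached 1 FPKM in all 3 libraries, with a median of 8.31 FPKM against 0.504 for all protein-coding genes. SPI1, which encodes PU.1, was at 70.3, 117 and 115 FPKM, lowest in control replicate 1. CEBPA was at 80.6, 97.6 and 77.7, and CEBPD, CEBPB, CEBPG and CEBPE, its family members, lay between 20.7 ± 0.694 and 34.5 ± 6.20. Factors of both branches were present. IRF8, the monocyte and dendritic cell factor, was at 55.1, 49.5 and 41.2, and GFI1, its granulocytic counterpart, at 30.2, 38.1 and 32.9. KLF4 (1.65 ± 0.401) and EGR2 (9 counts), which are tied to mature monocytes and macrophages, were low. RUNX1 was at 8.82 ± 2.73, and CBFB, its partner, at 39.6 ± 9.36. MYB, the progenitor factor, was at 34.7, 40.3 and 35.0.

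Stem-cell factors were at or above 1 FPKM in all 3 libraries in 8 of 18 cases, near the 42.0% of all protein-coding genes. LMO2, a bridging protein of blood stem cells, was at 42.2, 30.6 and 37.3 FPKM, LYL1, its DNA-binding partner, at 33.0 ± 4.52, and BMI1, a Polycomb protein, at 26.5 ± 3.14. LIN28B, a fetal RNA-binding protein that blocks let-7 microRNAs, was close to even over the libraries at 13.3, 14.2 and 14.6. MECOM, HLF, PRDM16 and MYCN had no count, and ERG had 10. GATA2 was near the threshold at 0.820, 1.20 and 0.912.

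**Figure D2:**
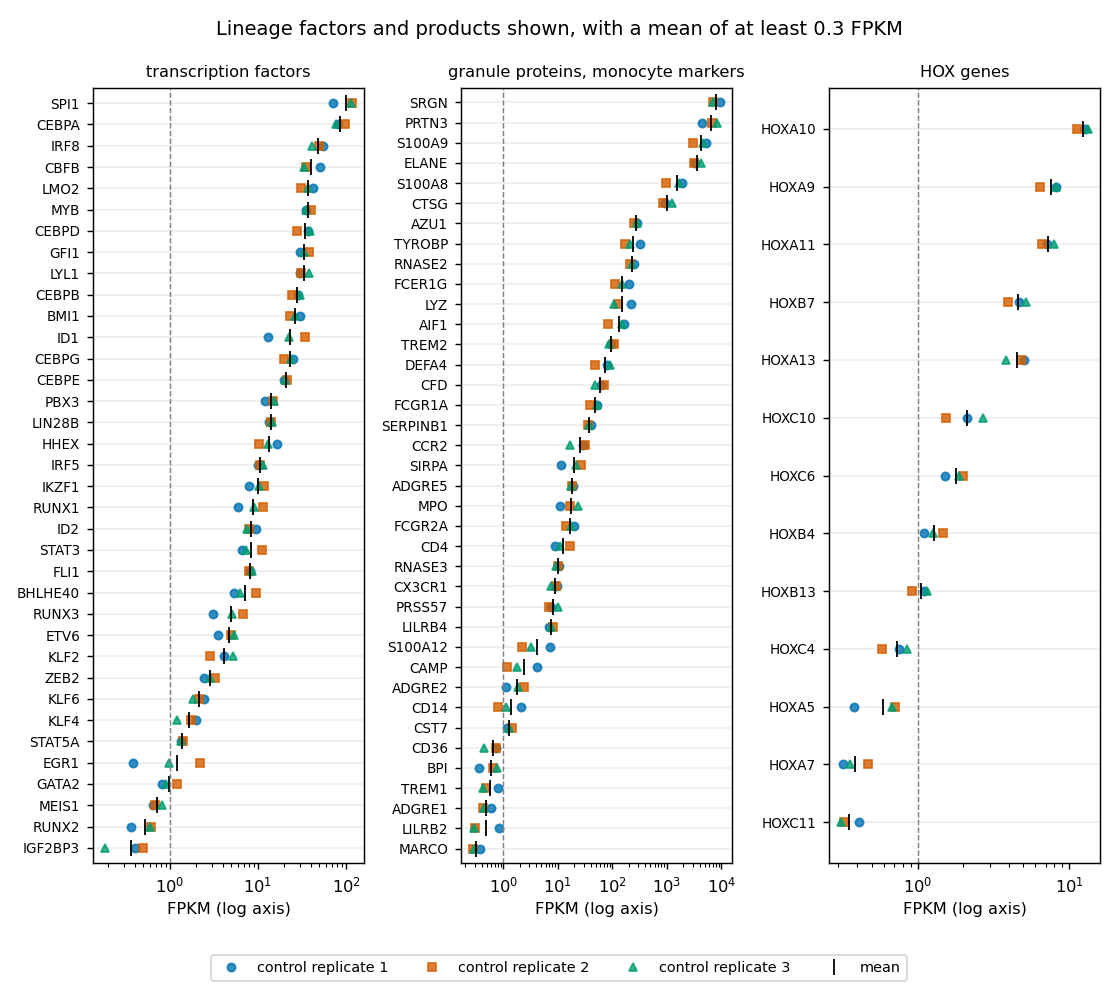
FPKM on a log axis of each transcription factor (left), granule protein or monocyte marker (middle) and HOX gene (right) shown, each with a mean of at least 0.3 FPKM; symbols are the 3 control libraries, the tick is their mean and the dashed line is 1 FPKM. The granule proteases and S100 proteins lie at the top, SPI1 and CEBPA near 100, and HOXA10 leads the HOX genes at 12.5.

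The KMT2A-MLLT3 fusion sets the interest in HOX genes. Within the HOXA cluster, 4 of 11 genes (36.4%) were at or above 1 FPKM in all 3 libraries, near the 42.0% of all protein-coding genes. These 4 were all from its posterior end. HOXA10 was at 12.7, 11.4 and 13.4 FPKM, HOXA9, the best known target of MLL fusions, at 8.25, 6.42 and 8.2, HOXA11 at 7.26 ± 0.694 and HOXA13 at 4.56 ± 0.641. HOXA5 averaged 0.588 and HOXA7 0.385, and HOXA4, HOXA6, HOXA3 and HOXA2 had 60, 27, 10 and 5 counts. Of the exon bases of HOXA10, HOXA9 and HOXA11, 26%, 27% and 31% are shared with other annotated genes. MEIS1, the cofactor of HOXA9, was below 1 FPKM in each library at 0.651, 0.680 and 0.813, while its relative PBX3 was at 14.1 ± 1.77. In the other clusters 4 of 28 genes (14.3%) passed, led by HOXB7 at 4.60 ± 0.652. A count of 0 was seen for 10 (35.7%), against 24.7% of all protein-coding genes.

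Counts per gene do not separate the fusion transcript from the intact alleles. KMT2A, over all its exons, was at 0.0841, 0.303 and 0.152 FPKM and MLLT3 at 0.370, 0.625 and 0.781, both lowest in control replicate 1. Of the genes whose proteins work with the fusion, 13 of 16 were at or above 1 FPKM in all 3 libraries, and 8 at or above 2 FPKM. The share at 1 FPKM was 81.25%, against 42.0% of all protein-coding genes. KDM1A, a histone demethylase, was at 13.7 ± 1.23, CDK9, the elongation kinase, at 10.4 ± 0.480, and MEN1, menin, which tethers KMT2A to chromatin, at 6.62 ± 1.83. DOT1L, the methyltransferase recruited by MLLT3, was at 1.68, 9.26 and 5.96, so it was several times lower in control replicate 1 than in control replicate 2.

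Of 50 cytokine receptors, 29 (58%) were at or above 1 FPKM in all 3 libraries and 2 (4%) had a count of 0. Over all protein-coding genes these shares were 42.0% and 24.7%. IL6R, the ligand-binding chain for interleukin 6, was the highest at 65.5, 85.6 and 67.5 FPKM, whereas IL6ST, the signalling chain it needs, was at 1.8, 1.76 and 1.53. The tumour necrosis factor receptors TNFRSF1A and TNFRSF1B stood at 53.9 ± 3.76 and 21.5 ± 2.20. Both chains of the interferon-gamma receptor were present, IFNGR1 at 23.6 ± 4.28 and IFNGR2 at 17.9 ± 2.75. The myeloid growth factor receptors were CSF1R, for macrophage colony-stimulating factor, at 10.4, 15.1 and 11.6, CSF3R, for the granulocyte factor, at 5.34 ± 0.829, and CSF2RA and CSF2RB, for the granulocyte-macrophage factor, at 2.18 ± 0.0467 and 1.82 ± 0.303. Lymphoid chains were low or absent, with no count for IL2RA, 5 counts for IL2RG and 36 for IL7R. IFNAR2 read 0.551 ± 0.0185, but it shares 83% of its exon bases with other annotated genes.

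Of 36 receptor tyrosine kinases, 8 (22.2%) were at or above 1 FPKM in all 3 libraries, against 42.0% of all protein-coding genes. The share at a count of 0 was 22.2%, near the 24.7% of all protein-coding genes. RET, the receptor for glial cell line-derived factors, was the highest and among the most even, at 12.6, 13.5 and 13.3 FPKM (hg38, chr10:43077027-43130351, plus strand). CSF1R overlapped it in range, and FLT3, a receptor of blood progenitors, was at 5.05, 7.09 and 5.32. LTK, a relative of ALK, was at 2.56 ± 0.512 and AXL at 1.25 ± 0.153. KIT, the stem cell factor receptor, was at 0.171 ± 0.0565, and EGFR, KDR, TEK, ALK and FGFR2 had a count of 0.

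Chemoattractant receptors reached 1 FPKM in all 3 libraries in 9 of 29 cases (31.0%), against 42.0% of all protein-coding genes. CXCR4, which holds blood cells in the marrow, was at 87.3, 59.8 and 60.4 FPKM, highest in control replicate 1. CCR2, the receptor by which monocytes leave the marrow, was at 29.2, 31.1 and 16.6, CCR1 at 9.69 ± 3.30, CXCR2 at 9.48 ± 1.67 and CX3CR1 at 8.82 ± 1.15. The formyl peptide receptors FPR1 and FPR2 were at 2.63 ± 1.53 and 2.95 ± 0.887. C5AR1, a complement receptor of mature phagocytes, was at 0.329 ± 0.0773, and CCR4, CCR6, CCR8 and CXCR5 had no count.

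Of the sensors of microbes, 9 of 28 were at or above 1 FPKM in all 3 libraries, against 42.0% of all protein-coding genes. None had a count of 0, and the median was 0.694 FPKM, against 0.504 for all protein-coding genes. PYCARD, the adaptor of the inflammasome, was the highest at 58.9 ± 18.7, but 60% of its exon bases are shared with other genes. NLRP3, an inflammasome sensor, was at 23.2, 22.8 and 19.6 and CASP1, the protease it activates, at 11.0 ± 2.10. The DNA-sensing pair CGAS and TMEM173, also called STING, stood at 10.7 ± 0.845 and 25.8 ± 3.72. Among Toll-like receptors TLR2 (7.53 ± 2.23) and TLR4 (2.33 ± 0.295) passed, while LY96, which TLR4 needs to bind lipopolysaccharide, was at 0.753, 0.307 and 0.389, and TLR9 had 1 count.

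Adhesion molecules were present in 20 of 31 cases (64.5%), against 42.0% of all protein-coding genes. CD63, a tetraspanin of granules, was at 545, 260 and 357 FPKM. ITGB2, the beta chain of the leukocyte integrins, was at 37.9, 75.8 and 48.8, and its alpha chains ITGAL and ITGAM were much lower at 4.57 ± 1.49 and 2.04 ± 0.662. ITGA5, ITGB1 and ITGA4, which form fibronectin receptors, were at 22.6 ± 10.6, 22.5 ± 5.79 and 10.5 ± 2.95.

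Among antigens used to type or target AML, 15 of 30 were at or above 1 FPKM in all 3 libraries, near the 42.0% of all protein-coding genes. The highest were TFRC, the transferrin receptor of dividing cells (58.6 ± 13.6), HLA-DRA (48.4 ± 13.5), CD70, the ligand of CD27 (27.3 ± 9.04), and VSIR, an immune checkpoint protein (24.7 ± 4.65). LILRB4, an inhibitory receptor of monocytic AML, was at 6.77, 8.22 and 7.52. CD33, the target of antibody drugs for AML, was at 4.60, 3.68 and 3.05, CD38 at 5.18 ± 1.48 and IL3RA, also called CD123, at 2.15 ± 0.387. CD34, PROM1 and CD96, markers of leukaemic stem cells, had a count of 0, which for CD34 allows up to 0.00875 FPKM.

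Antigen presentation by class I had 12 of 14 genes (85.7%) at or above 1 FPKM in all 3 libraries, against 42.0% of all protein-coding genes. Their median was 38.1 FPKM, against 0.504. B2M, the shared light chain, was at 352 ± 70.7 and HLA-B at 198, 186 and 197, among the 10 most even genes with a mean of at least 100 FPKM. HLA-C and HLA-E were at 60.3 ± 2.83 and 57.8 ± 3.88, and HLA-G had a count of 0. In class II, 11 of 20 genes (55%) passed, against 42.0% of all protein-coding genes. HLA-DRB1 (56.9 ± 12.9), HLA-DRA (54.7, 57.7 and 32.9) and the invariant chain CD74 (28.9, 67.6 and 41.7) were high, whereas HLA-DPA1 was at 0.658 ± 0.161, HLA-DQA1 had 14 counts and HLA-DMB 46. CIITA, the master activator of class II genes, was at only 0.0541 ± 0.0251, beside RFX5 at 13.7 ± 1.04 and RFXANK at 28.9 ± 2.21, the DNA-binding factors it joins. HLA genes have near-identical copies, so the split of reads among them is uncertain.

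Few secreted factors were present. Of 81 cytokines and growth factors 12 were at or above 1 FPKM in all 3 libraries and 34 had a count of 0, and of 44 chemokines these were 5 and 22. Over all protein-coding genes the shares were 42.0% and 24.7%. TGFB1 was the highest cytokine at 54.1, 92.6 and 83.6 FPKM. VEGFB (18.6 ± 5.56), TNFSF9, the ligand of a T cell co-receptor (16.2 ± 5.0), and IL1RN, the antagonist of interleukin 1 (14.4 ± 4.0), came next. IL1RN exceeded IL1B, the cytokine whose receptor it blocks, in every library, with IL1B at 0.747, 0.354 and 0.424. IL18 was at 3.55 ± 0.208 and TNF at 3.29, 3.70 and 2.33. IL6, IFNG, CSF2, CSF3, IL3 and IL4 had a count of 0, and IL10 and CSF1 had 5 and 15 counts. The ligands of IL6R and of CSF2RA were thus at a count of 0 while the receptors were present.

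CCL5, a chemokine for T cells and monocytes, was the outlying chemokine at 60.8, 54.7 and 71.2 FPKM (hg38, chr17:35871491-35880793, minus strand). The next, CCL23, was at 10.7, 5.97 and 7.39, below CCL5 in every library. CCL2, the ligand of CCR2, was at 3.76, 1.10 and 1.0, with control replicate 1 above the others. CXCL8, the neutrophil attractant, was at 0.834 ± 0.227, and CXCL10 had 7 counts.

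**Figure D3:**
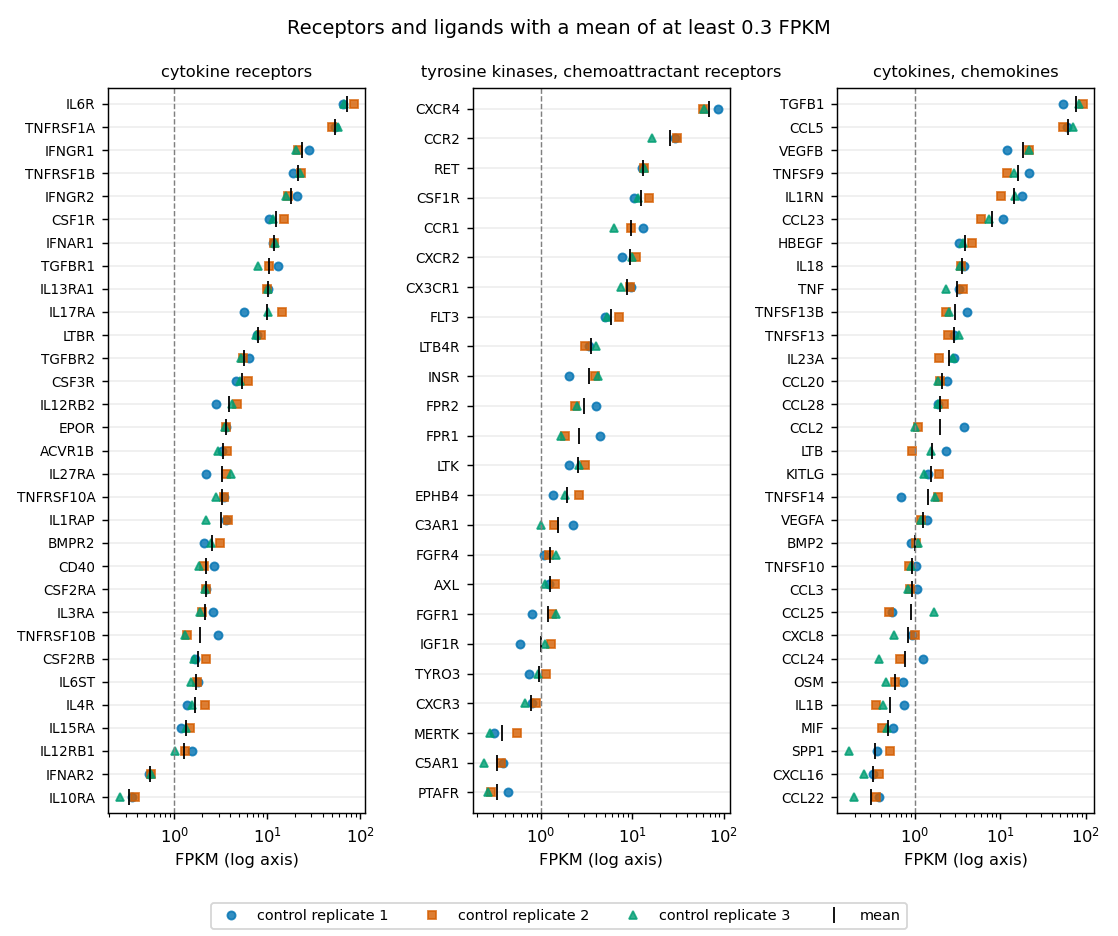
FPKM on a log axis of each cytokine receptor (left), receptor tyrosine kinase or chemoattractant receptor (middle) and cytokine or chemokine (right) of the lists with a mean of at least 0.3 FPKM; symbols are the 3 control libraries, the tick is their mean and the dashed line is 1 FPKM. IL6R, CXCR4, TGFB1 and CCL5 lead, and RET varies little between libraries.

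Signalling genes of phagocytes were mostly present, with 25 of 30 (83.3%) at or above 1 FPKM in all 3 libraries, against 42.0% of all protein-coding genes. Their median was 11.6 FPKM, against 0.504. ARHGDIB, an inhibitor of small GTPases, was at 912, 709 and 934, and LCP1, an actin bundler of white cells, at 171 ± 7.23. The phagocyte oxidase was unequal in its membrane chains, with CYBA at 497, 277 and 375 and CYBB at 8.77, 5.38 and 3.18. The kinases SYK (18 ± 2.74), BTK (16 ± 0.862) and LYN (12.3 ± 1.55) lay close together, and the lymphoid kinases LCK and BLK had 2 counts and none.

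The NFAT pathway carries calcium signals through the phosphatase calcineurin to NFAT factors. Of its 12 genes 9 (75%) were at or above 1 FPKM in all 3 libraries, against 42.0% of all protein-coding genes. At a threshold of 2 FPKM the number was 5. The calcineurin chains PPP3CB (15.9 ± 1.86), PPP3R1 (14.5 ± 2.0) and PPP3CA (10.6 ± 0.639) were the highest. NFATC2, at 2.66 ± 0.982, was above NFATC3 and NFATC1 (1.38 ± 0.267 and 1.33 ± 0.30), although its control replicate 1 value of 1.52 fell within the range of those genes. NFATC4 and NFAT5 were below 1 FPKM.

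Of the interferon-stimulated genes, 14 of 28 were at or above 1 FPKM in all 3 libraries and none had a count of 0, against 42.0% and 24.7% of all protein-coding genes. Their median was 1.14 FPKM, against 0.504. BST2, tetherin, was the highest at 264, 130 and 139. ISG15 was at 23.4 ± 7.52 and IFIT1 at 0.619 ± 0.135, and RSAD2 and IFI44L had 31 and 2 counts. No untransduced cells were measured, so a part of the lentivirus in these levels was not tested.

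The list of cell cycle regulators and tumour suppressors mixes drivers, inhibitors and cell death genes. It had 28 of 36 members (77.8%) at or above 1 FPKM in all 3 libraries, against 42.0% of all protein-coding genes. PCNA, the replication clamp, was at 318, 226 and 276 FPKM, MYC at 46.4, 64.6 and 58.8 and TOP2A at 36.8 ± 9.54. Cyclin D3 (CCND3, 82.7 ± 17.5) was the D-type cyclin present, as CCND1 and CCND2 had 165 and 90 counts over the 3 libraries. MCL1, which blocks cell death, was at 105 ± 12.6, above BCL2L1 (6.95 ± 0.437) and BCL2 (3.16 ± 0.275). The cycle inhibitors CDKN2C and CDKN1A were at 60.5 ± 3.47 and 12.8 ± 3.08.

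A block of chromosome 9 had no counts. CDKN2A and CDKN2B, cell cycle inhibitors, and MTAP, the methionine salvage enzyme made in most tissues, had a count of 0 in all 3 libraries. For MTAP, with 14617 exon bases, this allows up to 0.00552 FPKM. Between IFNA14 (1 count) and DMRTA1 (17 counts), 36 annotated genes of any type, 12 of them protein-coding, had no count, over 1207 kb. A count of 0 was common elsewhere, at 60.6% of all genes and 24.7% of protein-coding genes, and the longest protein-coding run without a count held 55. Of these 12 genes 6 were interferon alpha genes, a family in which 12 of 13 had no count. KLHL9, a ubiquitin ligase adaptor in this interval named after its value was seen, had none either. MTAP, KLHL9 and CDKN2B were also without a count in all 9 libraries of the series, and CDKN2A had 3 counts over the 9. The nearest protein-coding genes with a mean of 1 FPKM or more were HACD4 on the side of MLLT3, at 6.16, 3.24 and 3.42, and TUSC1 on the other, at 10.8, 8.44 and 13.7. RNA counts do not show whether the DNA is present.

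**Figure D4:**
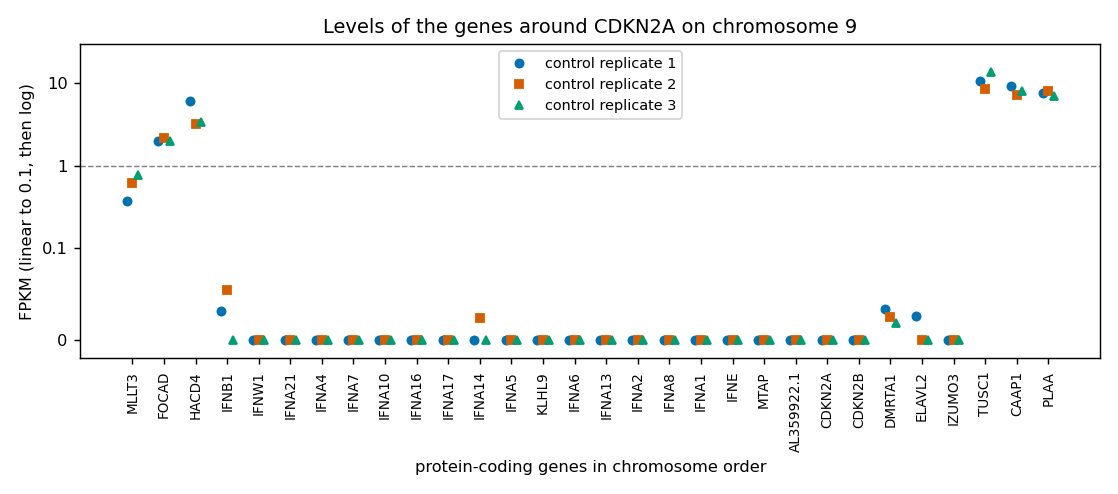
FPKM of the protein-coding genes from MLLT3 to PLAA in chromosome order in the 3 control libraries, on an axis that is linear to 0.1 and logarithmic above; the dashed line is 1 FPKM. HACD4 and TUSC1, at 4.27 and 11.0 on average, flank a stretch in which MTAP, CDKN2A and CDKN2B have no count.

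Genes of other cell types were largely at a low level or without a count, with a few exceptions. Of 27 red cell and platelet genes 17 had a count of 0, among them GATA1, HBB and PF4, and 3 were at or above 1 FPKM in all 3 libraries. These shares were 63.0% and 11.1%, against 24.7% and 42.0% of all protein-coding genes. NFE2, a factor that myeloid cells share, was at 25.6 ± 1.12, EPOR at 3.59 ± 0.0484 and GP9, a platelet glycoprotein, at 3.82 ± 1.07. Of 34 T and NK cell genes only NKG7, a protein of cytotoxic granules, passed, at 27.1, 15.5 and 25.6. A count of 0 was seen for 17 of them (50%), among them CD3D, CD3E, CD3G, CD2, GZMA and GZMB, and 6 lay between 0.1 and 1 FPKM. Of 22 B cell genes CD79B, a chain of the B cell receptor, passed alone at 13.2, 8.37 and 11.6, beside CD79A at 0.671 ± 0.268 and MS4A1 with no count. In the B cell list 10 (45.5%) had a count of 0 and 4 lay between 0.1 and 1 FPKM.

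The virus was made in 293T cells, so markers of epithelial, renal and neural cells were counted. Of 20, 2 (10%) were at or above 1 FPKM in all 3 libraries and 8 (40%) had no count, against 42.0% and 24.7% of all protein-coding genes. At a threshold of 2 FPKM 1 passed, and with TPM 4 did. Carry-over of RNA from the 293T cells was not tested. WT1, a kidney factor that many AMLs also express, was even at 7.02, 6.77 and 7.17. The keratins KRT18 and KRT19 had 6 counts and none, and CDH1 and PAX2 had none. Of the 20 markers, 3 lay between 0.1 and 1 FPKM and 7 had counts but a mean below 0.1. Of 19 markers of fibroblasts, muscle and vessels, SPARC, a matrix protein, was at 24.3, 44.3 and 35.9 and DES at 2.16 ± 0.488, while COL1A2, COL3A1 and CDH5 had no count. Of 27 organ markers MBP alone passed, at 2.31 ± 0.297, and 14 had no count.

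Some large families that serve a single tissue were at 0 almost throughout. This held for 368 of 386 olfactory receptors, 91 of 94 keratin-associated proteins, 136 of 142 immunoglobulin variable genes, 99 of 106 T cell receptor variable genes and 37 of 39 beta-defensins. Over all protein-coding genes the share at 0 was 24.7%, and over all genes 60.6%. Other families were less often at 0, with 17 of 27 taste receptors, 38 of 84 potassium channels, 18 of 45 collagens and 24 of 66 protocadherins. The longest run of neighbouring protein-coding genes without a count was 55 genes on chromosome 11, 50 of them olfactory receptors. The longest run at or above 1 FPKM in all 3 libraries was 14 genes on chromosome 6, from HLA-E to FLOT1.

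The 3 libraries were not equally close to each other. Of 3490 protein-coding genes with a mean of at least 10 FPKM, 162 (4.64%) differed more than 2-fold between the highest and the lowest library, the median ratio was 1.36 and the median coefficient of variation 16%. Control replicate 2 was highest and control replicate 1 lowest for 90 of the 162, and the reverse held for 61. Without control replicate 1 the number fell to 7, and without control replicate 2 to 35. The widest gaps were in MYH9, the heavy chain of non-muscle myosin, at 5.21, 39.9 and 16.1 FPKM, in SRRM2, a splicing factor, at 2.63, 19.2 and 9.13, and in POLR2A, the large subunit of RNA polymerase II, at 3.42, 23.2 and 10.7. Among 469 protein-coding genes with a mean of at least 100 FPKM, 28 (5.97%) differed more than 2-fold. For 21 of these control replicate 1 was highest and control replicate 2 lowest, and the reverse held for 2. Of the same 469 genes, HSPD1, a mitochondrial chaperone, had the smallest ratio between libraries, at 414, 415 and 421. AHCY (109 ± 2.03), an enzyme of the methionine cycle, and the DNA repair genes XRCC6 (257 ± 5.08) and XRCC5 (125 ± 2.33) were among the 10 smallest.

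At the median, the difference between the libraries changed over bins of gene length. Over 8376 protein-coding genes in 5 bins of exon length, the median ratio of control replicate 1 to control replicate 2 was 1.35 in the shortest (207 to 2783 bases), then 1.15, 1.03 and 0.966, and 0.887 in the longest (7533 to 36852 bases). For control replicate 3 over control replicate 2 it went from 1.21 to 0.890. The level also fell over these bins, from a median of 18.8 FPKM in the shortest to 3.78 in the longest. Length and level were not separated. Single genes did not all follow the medians. Control replicate 1 exceeded control replicate 2 for 83.5% of genes in the shortest bin and for 37.3% in the longest. The short gene S100A8 was higher in control replicate 1 and the long gene DOT1L lower, but PRTN3, with only 1146 exon bases, was also lower there. The part of gene length or of level in any single gene's spread was not tested.

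**Figure D5:**
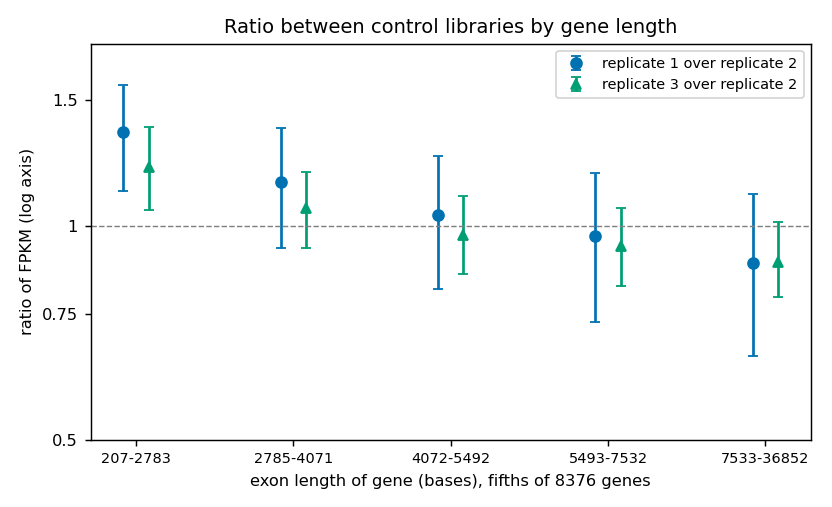
Median ratio of FPKM between control libraries (bars from the lower to the upper quartile of genes) in 5 bins of exon length over 8376 protein-coding genes, on a log axis; circles are replicate 1 over replicate 2 and triangles replicate 3 over replicate 2. The medians fall from 1.35 to 0.887 and from 1.21 to 0.890.

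Detection was low for genes that share most of their exon bases with others. Of 1133 protein-coding genes with 50% or more shared, 95 (8.38%) were at or above 1 FPKM in all 3 libraries and 59.6% had a count of 0, against 38.9% and 29.3% of 11089 genes that share none. Genes that share less did not follow this, with 52.2% of those below 10% and 49.4% of those from 10% to below 50% at or above 1 FPKM in all 3 libraries. Low values of genes with 50% or more shared, among them CD68, IFNAR2, CCL3 (75% shared) and MIF, an abundant cytokine of many cells listed here at 0.484 ± 0.0692 (62% shared), are therefore uncertain.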

How the data were processed

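Per the submitters' processing notes, the tools were featureCounts, DESeq2 (given as version 2), STAR 2.5 and fastp, on the hg38 build, with no roles stated. The authors deposited raw counts per gene for 58735 Ensembl genes, all in GENCODE release 29. They also deposited FPKM values in their comparison tables, which equalled counts divided by the deposited gene length and by an effective library size of 0.898, 1.06 and 0.952 times the total count in control replicates 1, 2 and 3. Deposited gene lengths equalled the union of GENCODE exons. Genes outside the table used (at most 1 control count) had FPKM computed from counts with the same constants. Symbols that had turned into dates (22) were restored from GENCODE. Strand use and the treatment of overlapping genes are not given in the sources used here.

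Groups came from the sample titles. Genes were classed by mean FPKM with edges at 100, 10, 1 and 0.1, and a gene was called present at 1 FPKM or more in all 3 control libraries. No test was run, since there is a single group. The 28 gene lists (789 genes, 786 matched) and the members were chosen with earlier results of these data known. A few list members are not reported here by name. Any other may be named, with the 25 protein-coding and 10 long non-coding genes of highest mean, the mitochondrial coding genes, the 15 largest and 10 smallest ratios between libraries, and 5 genes on either side of CDKN2A. KLHL9, HACD4, TUSC1, DEFB1, PPP1R27 and its neighbours, and genes at the ends of runs, were named after their values were seen. Promoter windows are from RefSeq (GRCh38.p14), matched by symbol and, for 425 genes, through a newer symbol, taking the window nearest the gene start. Alternatives were TPM, TMM (edgeR 4.0.16) and median-of-ratios (DESeq2 1.42.0) scaling, other thresholds and leaving out each library. The calculation was tested on simulated data that had no trend with gene length, so that test does not bear on the spread of the real libraries. Python 3.11.15 and R 4.3.3 were used.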

Additional observations from a re-analysis of the deposited data

How the results depend on the processing

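No paired analysis was possible because the results describe a single group and come from no test. Levels are relative to the authors' scaling: TPM values were 2.62 times the FPKM values at the median, TMM values 0.967 times and median-of-ratios values 0.954 times. Of 743 gene means, 709, 21 and 37 moved by more than 1 SD under these 3, and the move under TPM is close to a common factor. Counts of list members at or above 1 FPKM moved by more than 1.5 times in these cases. With TPM they became 4 for B cell genes, 17 for sensors, 19 for cytokines, 8 for chemokines, 4 for 293T-type markers and 4 for stroma. At a threshold of 0.5 FPKM they became 3 for B cell genes and 15 for sensors. At 2 FPKM they became 1 for the HOXB, HOXC and HOXD genes, 5 for receptor tyrosine kinases, 2 for chemokines, 8 for fusion partners, 5 for the NFAT pathway, 1 for 293T-type markers, 1 for stroma and 0 for organ markers. Median-of-ratios scaling gave 1 for 293T-type markers. Genes over 2-fold apart, 162 with all libraries, were 592 with TPM and 933 from a mean of 1 FPKM. Leaving out a library gave 7 to 153 (7 without control replicate 1 and 35 without control replicate 2). TPM puts more genes above the floor of 10 and rescales each library by its own factor, so ratios between libraries change too. How much each adds was not tested, and the evenness of single genes is given in FPKM only. Depth limits genes at a few counts, such as the 1061 protein-coding genes with 1 to 3 counts in all.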

Other observations

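Some genes outside the lists stood out by their levels. PPP1R27, which encodes a regulatory subunit of protein phosphatase 1, was at 1510, 1371 and 1741 FPKM (hg38, chr17:81833492-81835050, minus strand) and shares no exon bases with another gene. Its neighbours were P4HB at 264, 367 and 337, MCRIP1 at 11.8, 5.50 and 6.45, and GCGR, the glucagon receptor, with a count of 0. DEFB1, a beta-defensin of epithelia, was at 257, 244 and 343 FPKM, while 37 of the 39 annotated beta-defensins had a count of 0. PLPPR3, which lies next to AZU1 and belongs to a family of lipid phosphatase-related proteins, was at 79.3, 144 and 153 FPKM. OR2W3 was the sole olfactory receptor at or above 1 FPKM in all 3 libraries, at 2.19, 2.05 and 1.72.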
